A study of Mus musculus with 30 samples.

Results

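The 52 genes described here encode the contractile machinery of skeletal muscle fibres and the proteins that fuel and control it. They are 15 isoforms of fast fibres, 9 of slow fibres, 3 of embryonic or neonatal fibres and 12 sarcomere proteins of both fibre types. The others are 3 proteins of excitation-contraction coupling, 5 of muscle metabolism, 2 ubiquitin ligases of muscle atrophy and 3 genes of myogenic control and the nerve endplate. The rule takes them by gene symbol and uses no measured value. Each symbol matched 1 row of the 55487 genes listed, and 48 of the 52 were among the 17638 genes with enough counts to be tested. The slow isoforms Myh7, Myl2 and Myl3 and the embryonic myosin Myh3 had too few counts for a test and are given as levels.

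RNA was sequenced from 30 samples of a mouse model of oral squamous carcinoma. The carcinogen is 4NQO (4-nitroquinoline-1-oxide), given in drinking water, and lesions of the mouth progress from hyperplasia to invasive carcinoma. The samples are 3 normal tissues (D01 to D03), 8 hyperplasias (A01 to A08), 7 dysplasias (B01 to B07), 6 carcinomas in situ (C01, C02, C04, C07, C10 and C11) and 6 invasive carcinomas (C03, C05, C06, C08, C09 and C12). All are from male C57BL/6J mice. Every sample, the normal ones included, carries the same protocol of 10 weeks of 4NQO at 100 ug/mL, begun when the mice were 6 weeks old. Whether the normal mice drank it is therefore not given by the labels. The labels give oral squamous cell carcinoma as the tissue of every sample and name no anatomical site, and they do not say that the samples come from separate animals. The p-values therefore measure only the spread between these samples, which may be technical. The code letter follows the stage, so that a batch by letter cannot be told apart from stage except between carcinoma in situ and invasive carcinoma, which share the letter C.

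A skeletal muscle fibre contracts when calcium released from the sarcoplasmic reticulum binds troponin on the thin actin filaments and lets the thick myosin filaments pull on them. Each step has isoforms that differ between fast and slow fibres, and fast fibres are further sorted by their myosin heavy chain: Myh2 in type 2A, Myh1 in type 2X and Myh4 in type 2B. Embryonic and neonatal myosins (Myh3, Myh8) and cardiac actin (Actc1) mark developing and regenerating fibres, and the muscles of the mouse tongue and face are known to be mostly fast.

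Total counts ran from 17725604 to 28023098 per sample. Levels are in CPM, counts scaled to the library total and to TMM factors, which ran from 0.892 to 1.057. Counting error was small for most members, but not for the near-absent slow and embryonic ones. Tnni1 also had few counts, from 8 to 88 per sample, and Myh8 and Myod1 fell to 26 in A07 and C09. Skeletal muscle is not named in the labels, but the skeletal actin Acta1 stood at 2515 CPM or more in all 30 samples. A reference score, the mean log2 CPM of 20 other muscle genes that are not members, stood for the muscle RNA of a sample. Normal tissue scored 7.90 ± 0.31 (SD, n = 3) and hyperplasia 7.52 ± 0.22 (n = 8). Dysplasia scored 7.23 ± 0.24 (n = 7), carcinoma in situ 7.11 ± 0.30 (n = 6) and invasive carcinoma 6.90 ± 0.45 (n = 6). The normal sample D02 had the highest score of all samples, 8.23, and the invasive sample C12 the lowest, 6.08. The normal sample D01 stood apart from D02 and D03 in some genes of muscle atrophy and in its salivary gland markers. Results that rest on these samples are given with and without them. Fewer muscle fibres in a sample and less RNA per fibre cannot be told apart in bulk tissue.

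Promoters of 5 genes on which the results turn are shown first, 4 of abundant muscle genes and that of the ligase Trim63, whose level in the normal sample D01 was far above D02 and D03. The 250 bases before the start site were taken from RefSeq on GRCm38.p6 for 39 of the 52 members. The motif CAGCTG, an E-box form known to bind myogenic factors, is its own reverse complement. It stood in 19 of the 39 members, against 14.7% of 27025 genes with such a window. The general E-box CANNTG, which includes it, stood in 34 of the 39 against 69.3%. The MCAT motif CATTCC, searched on both strands, stood in 11 of the 39 members against 14.4% of genes, and the MEF2-type motif CTAAAAATA, also searched as TATTTTTAG, only in Casq2. In the ligase gene Trim63 the window also held a match to TGTTTAC, a forkhead-type motif found in 3.54% of genes, and to the glucocorticoid response element, found in 0.44%. These last motifs were searched on both strands and were chosen after the values of Trim63 had been seen. In the windows, matches to these motifs other than CANNTG are in capitals, and each window is read in the direction of the gene: Acta1 at chr8:123894776-123895025 (minus strand), Ckm at chr7:19410844-19411093, Myh4 at chr11:67237562-67237811, Myh1 at chr11:67199852-67200101 and Trim63 at chr4:134314870-134315119 (all plus strand).
Acta1: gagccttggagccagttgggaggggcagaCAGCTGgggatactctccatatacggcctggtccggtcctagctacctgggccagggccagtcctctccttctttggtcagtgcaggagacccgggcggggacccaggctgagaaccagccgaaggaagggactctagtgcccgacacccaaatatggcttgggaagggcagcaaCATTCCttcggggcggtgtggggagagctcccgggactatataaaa
Ckm: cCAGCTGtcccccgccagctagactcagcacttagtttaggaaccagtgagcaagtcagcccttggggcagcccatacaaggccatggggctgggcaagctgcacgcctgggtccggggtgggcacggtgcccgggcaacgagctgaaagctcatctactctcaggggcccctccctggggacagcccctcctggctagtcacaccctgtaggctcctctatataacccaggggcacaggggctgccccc
Myh4: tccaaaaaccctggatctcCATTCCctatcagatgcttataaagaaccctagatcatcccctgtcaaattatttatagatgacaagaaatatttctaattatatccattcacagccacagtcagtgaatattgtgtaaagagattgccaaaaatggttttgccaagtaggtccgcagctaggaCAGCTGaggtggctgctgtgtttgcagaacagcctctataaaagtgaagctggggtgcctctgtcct
Myh1: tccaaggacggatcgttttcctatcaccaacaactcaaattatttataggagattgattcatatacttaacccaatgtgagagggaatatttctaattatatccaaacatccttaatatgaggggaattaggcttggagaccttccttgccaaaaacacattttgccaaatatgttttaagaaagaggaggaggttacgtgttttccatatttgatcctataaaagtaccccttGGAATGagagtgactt
Trim63: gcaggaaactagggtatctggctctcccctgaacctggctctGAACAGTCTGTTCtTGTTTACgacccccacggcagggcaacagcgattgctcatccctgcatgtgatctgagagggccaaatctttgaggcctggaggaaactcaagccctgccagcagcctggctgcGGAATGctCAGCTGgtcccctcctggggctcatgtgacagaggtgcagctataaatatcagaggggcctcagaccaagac

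Acta1 and Myh4 each held CAGCTG and CATTCC, at 221 and 46 bases before the start in Acta1 and at 67 and 231 in Myh4, and Ckm held CAGCTG at 249 bases. Myh1 held CATTCC at 16 bases and no CAGCTG in this window. Trim63 held the glucocorticoid response element at 208 bases, TGTTTAC at 194, CATTCC at 80 and CAGCTG at 72. A match describes the letters only, and no binding was measured.

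The number of members called lower than in normal tissue grew with the stage, from a minority in hyperplasia to most of them in invasive carcinoma. Together the 52 members took 8.48% ± 1.23 (SD, n = 3) of all counts in normal tissue. Hyperplasia had 6.87% ± 1.16 (n = 8), dysplasia 5.62% ± 0.919 (n = 7), carcinoma in situ 5.35% ± 1.003 (n = 6) and invasive carcinoma 4.74% ± 1.24 (n = 6). Members were called where edgeR's quasi-likelihood test, adjusted by Benjamini-Hochberg over all tested genes, gave a p below 0.05. By this rule 12 of 48 members were lower and 1 higher in hyperplasia than in normal tissue, where 6.07% of all genes were lower and 8.22% higher. In dysplasia 32 were lower and 0 higher (12.4% and 13.3% of all genes), in carcinoma in situ 35 were lower and 1 higher (18.2% and 19.4%), and in invasive carcinoma 40 were lower and 0 higher (22.7% and 23.4%). The members' median log2 fold changes were -0.42, -0.68, -0.76 and -0.91 in that order, while the medians of all genes tested lay between 0.012 and 0.022. These 4 comparisons share the 3 normal samples.

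Every hyperplasia sample lay below all normal samples for 10 members (5.52% of all genes), every dysplasia sample for 28 (8.95%), every carcinoma in situ for 26 (12.5%) and every invasive carcinoma for 32 (15.2%). The calls against normal tissue rested on D02 to a large degree. Without D02 the lower calls numbered 2, 4, 17 and 30 in the order of the stages. Without D01 they numbered 12, 36, 35 and 39, and without D03 11, 26, 32 and 36. The share of all genes called without each sample is not given here, so these counts do not tell whether the losses were particular to the members. No member called in these comparisons changed sign when any 1 sample was left out. Of the 40 calls in invasive carcinoma 29 were made whichever sample was left out, against 16 of 36 in carcinoma in situ, 4 of 32 in dysplasia and 1 of 13 in hyperplasia.

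Between lesion stages, where the normal samples are on neither side, invasive carcinoma was lower than hyperplasia for 27 of 48 members and higher for 0, against 19.2% and 19.1% of all genes. Without C12, 18 were lower and 1 higher, and without A04, the hyperplasia with the most muscle RNA, 9 of the 27 calls were lost. The shares of all genes without C12 or A04 are likewise not given here. Dysplasia was lower than hyperplasia for 4 members and higher for 0 (2.19% and 2.99% of all genes). Carcinoma in situ was lower than dysplasia for 0 and higher for 1 (2.47% and 2.99%), with 1 lower and 5 higher at an unadjusted p under 0.05, as were 10.0% and 13.3% of all genes. Invasive carcinoma differed from carcinoma in situ in 0 members and 0.0% of all genes in edgeR, DESeq2 and limma-voom, although 8 members were lower and 0 higher at an unadjusted p under 0.05 in edgeR, as were 3.65% and 3.49% of all genes. A test of 1 slope over the stages, coded 0 to 4, called 38 members lower and 1 higher, against 25.8% and 24.7% of all genes. The slopes with the smallest adjusted p were those of Tcap (-0.29 ± 0.04 per stage, adjusted p = 7.78e-06), Myh4 (-0.33 ± 0.05, adjusted p = 1.84e-05) and Myoz1 (-0.24 ± 0.04, adjusted p = 2.81e-05). Among the 27 lesion samples alone the slope was lower for 34 members and higher for 2, against 21.0% and 22.1% of all genes.

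**Figure D1:**
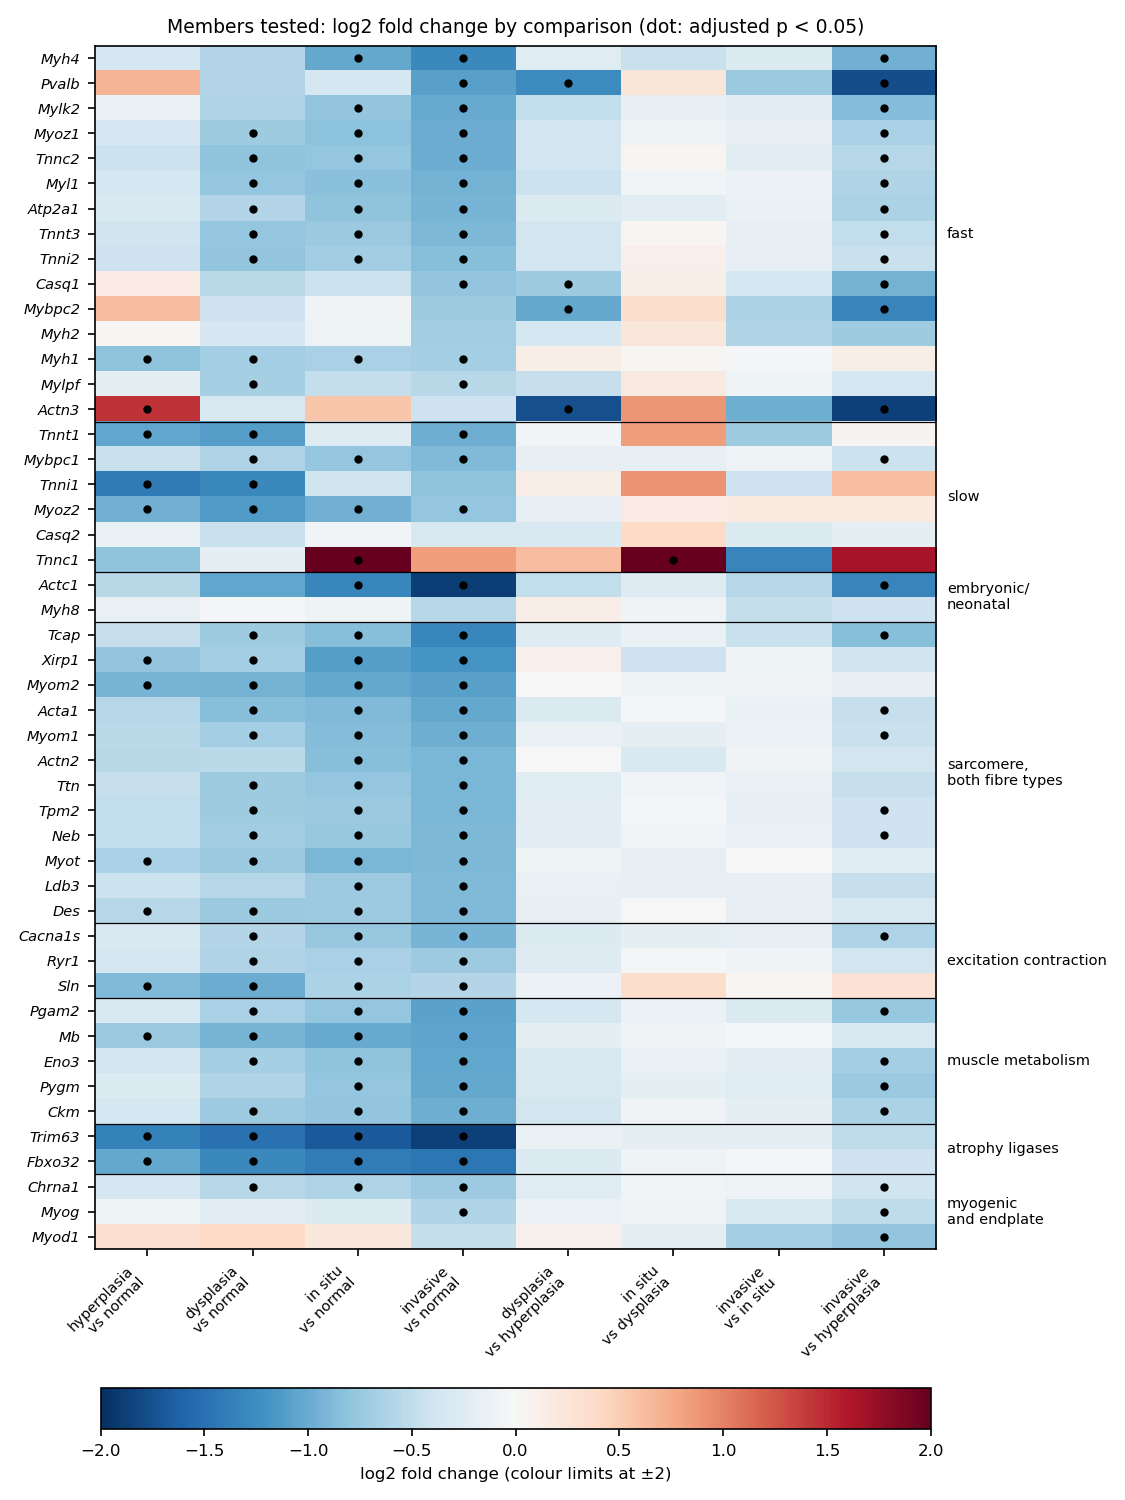
Heat map of the log2 fold changes of the 48 tested members (rows, grouped by role) in 8 stage comparisons (columns). Colour gives the log2 fold change with limits at -2 and 2, which the 2.15 and 2.34 of Tnnc1 exceed, and a dot marks an adjusted p under 0.05. In all 40 members carry a dot in invasive carcinoma against normal tissue and none in invasive carcinoma against carcinoma in situ.

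The 12 sarcomere proteins that both fibre types use were all lower in invasive carcinoma than in normal tissue (22.7% of all genes), by log2 fold changes around a median of -0.92. Acta1, the actin of the thin filament, stood at 8001, 11059 and 8488 CPM in the normal samples. Its lowest, median and highest levels were 4841, 5962 and 8502 CPM in hyperplasia and 3232, 5020 and 7019 in dysplasia. They ran from 3832 through 5035 to 6234 in carcinoma in situ and from 2515 through 4588 to 6067 in invasive carcinoma. Only hyperplasia overlapped normal tissue, by 1 sample, A04. The log2 fold change of Acta1 in invasive carcinoma was -1.02 ± 0.21 (SE; adjusted p = 0.000397). The earlier stages had -0.57 ± 0.20 in hyperplasia (adjusted p = 0.0605), -0.85 ± 0.21 in dysplasia (adjusted p = 0.00463) and -0.88 ± 0.21 in carcinoma in situ (adjusted p = 0.00241). The call in dysplasia was lost without D02.

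Tcap, the titin cap of the Z-disc, stood at 1217, 1529 and 845 CPM in normal tissue and from 203 through 519 to 644 CPM in invasive carcinoma. All 6 invasive samples lay below all 8 hyperplasias, which ran from 686 to 1059 CPM. Its log2 fold change was -1.31 ± 0.22 against normal tissue (adjusted p = 5.19e-05) and -0.85 ± 0.18 against hyperplasia (adjusted p = 0.00063). Xirp1, an actin-binding protein of the intercalated and myotendinous junctions, stood at 160, 185 and 158 CPM in normal tissue and from 76 to 133 CPM in hyperplasia, without overlap. It had a log2 fold change of -0.78 ± 0.20 in hyperplasia (adjusted p = 0.0112) and of -1.18 ± 0.21 in invasive carcinoma (adjusted p = 0.000117). Without D02 the hyperplasia value was -0.73 (adjusted p = 0.063).

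Des (desmin, the intermediate filament that ties Z-discs together) stood at 1771, 2194 and 1772 CPM in normal tissue, from 996 to 1714 in hyperplasia and from 595 to 1330 in invasive carcinoma, with no lesion sample in the normal range. Its log2 fold change was -0.57 ± 0.18 in hyperplasia (adjusted p = 0.0309) and -0.88 ± 0.19 in invasive carcinoma (adjusted p = 0.00041), and the hyperplasia call was lost without D02 (-0.48, adjusted p = 0.169), A06 or A07. Myom2, a myosin-binding protein of the M-band, was the sarcomere gene with the smallest adjusted p in hyperplasia. Its normal samples stood at 775, 1165 and 871 CPM and its hyperplasias from 347 through 464 to 719, without overlap, a log2 fold change of -0.93 ± 0.22 (adjusted p = 0.00549; without D02 -0.76, adjusted p = 0.0644). Myom2 then stayed near that level, with -1.09 ± 0.23 in invasive carcinoma against normal tissue and -0.16 ± 0.18 against hyperplasia (adjusted p = 0.505). Among the others, Ttn (titin, the spring of the sarcomere) had -0.92 ± 0.25 in invasive carcinoma (adjusted p = 0.00371) and lost the call without D02 (-0.49, adjusted p = 0.131). Neb (nebulin), Tpm2 (a tropomyosin), Myom1, Actn2, Ldb3 and Myot lay between -0.98 and -0.89. Against hyperplasia 5 of the 12 were lower in invasive carcinoma (19.2% of all genes): Acta1, Tpm2, Neb, Tcap and Myom1. All of these but Tcap lost the call when any of A01, A02, A04, C03, C09 or C12 was left out, for Acta1 -0.36 (adjusted p = 0.0842) without A04 and -0.33 (adjusted p = 0.107) without C12.

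**Figure D2:**
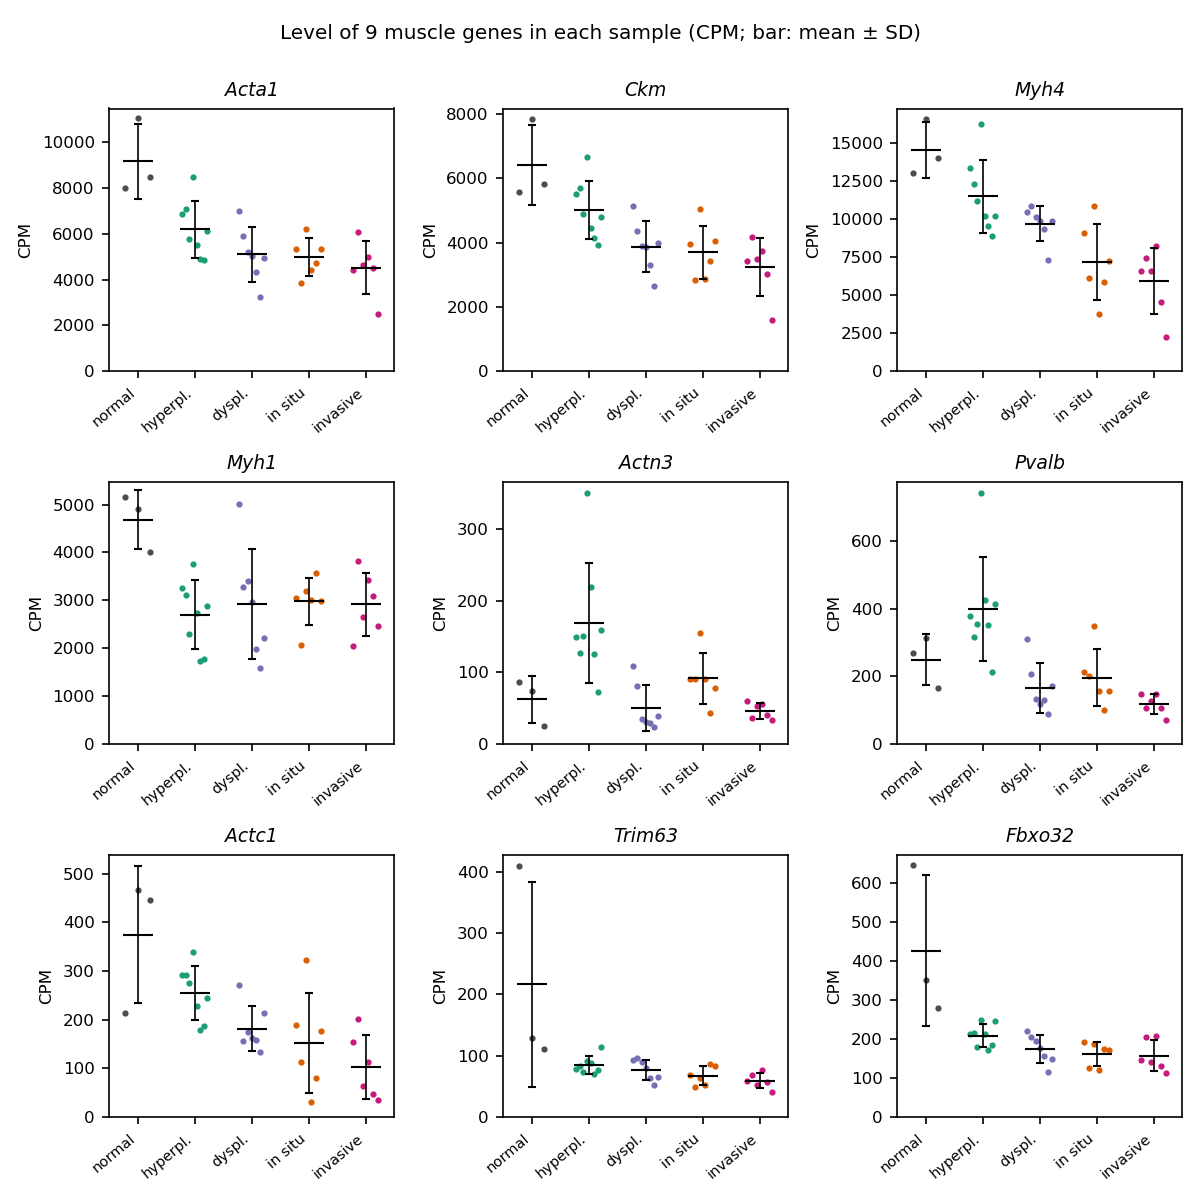
Levels of 9 members in each of the 30 samples, in CPM on linear axes that start at 0, with bars for the stage means and error bars of 1 SD (n = 3, 8, 7, 6 and 6). Acta1, Ckm, Myh4 and Myh1 have their highest stage mean in normal tissue, Actn3 and Pvalb theirs in hyperplasia, where A04 reaches 350 and 744 CPM, and Trim63 and Fbxo32 in the normal sample D01, at 410 and 646 CPM.

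Of the 15 fast isoforms, 12 were lower in invasive carcinoma than in normal tissue (22.7% of all genes) and 12 lower than in hyperplasia (19.2%), but not the same 12. Against hyperplasia the calls of Tnnt3 and Tnni2 did not hold whichever sample was left out, while the others did. Myh4, the heavy chain of the fastest fibres, had the highest CPM of all members in normal tissue, at 13004, 16560 and 14039. These CPM are not divided by exon length, which is 6016 bases for Myh4 and 1536 for Acta1, so they do not rank the members by abundance. Myh4 ran from 8853 through 10710 to 16250 CPM in hyperplasia, from 7323 through 9886 to 10827 in dysplasia, from 3781 through 6678 to 10891 in carcinoma in situ and from 2251 through 6577 to 8199 in invasive carcinoma. Every invasive sample lay below every hyperplasia, as it did for 4 members (Myh4, Actn3, Pvalb and Tcap) and for 3.96% of all genes. The log2 fold changes of Myh4 against normal tissue were -0.34 ± 0.26 in hyperplasia (adjusted p = 0.416) and -0.58 ± 0.27 in dysplasia (adjusted p = 0.104). They were -1.02 ± 0.27 in carcinoma in situ (adjusted p = 0.00459) and -1.29 ± 0.27 in invasive carcinoma (adjusted p = 0.000394). Against hyperplasia the value in invasive carcinoma was -0.95 ± 0.22 (adjusted p = 0.00144), and both invasive calls were made whichever sample was left out.

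Myh1, the heavy chain of type 2X fibres, took another course. It stood at 5163, 4899 and 4001 CPM in normal tissue, from 1726 through 2812 to 3762 in hyperplasia and from 1593 through 2972 to 5002 in dysplasia. It then ran from 2064 through 3026 to 3570 in carcinoma in situ and from 2052 through 2866 to 3811 in invasive carcinoma. Normal tissue was above all hyperplasias, and the lesion stages had nearly the same median. The log2 fold change of Myh1 in hyperplasia was -0.80 ± 0.25 (adjusted p = 0.0292), and invasive carcinoma differed from hyperplasia by 0.11 ± 0.20 (adjusted p = 0.696). Its call in invasive carcinoma, -0.69 ± 0.26 (adjusted p = 0.033), was lost without D01 (-0.60, adjusted p = 0.106), D02, C03, C06 or C12, and that in hyperplasia without D01, D02, A06 or A07. Myh2, the type 2A heavy chain, was far lower, at 97.4, 93.1 and 47.2 CPM in normal tissue and from 22.2 to 201 CPM in hyperplasia, and passed the test in no comparison.

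Per kb of exon, Myh1 made up 23.4% ± 3.3 (SD, n = 3) of the summed myosin heavy chain members in normal tissue. The share was 18.0% ± 2.24 (n = 8) in hyperplasia and 21.5% ± 5.05 (n = 7) in dysplasia, and carcinoma in situ had 29.4% ± 8.24 (n = 6) and invasive carcinoma 33.4% ± 10.0 (n = 6). Myh4 made up 76.2%, 81.6%, 78.1%, 69.9% and 66.1% in the same order, and Myh2 between 0.349% and 0.647%. The share of Myh1 ran from 14.6% to 21.0% in the hyperplasias and from 22.7% to 50.6% in the invasive carcinomas, without overlap. These shares are a description with no test. The log2 ratio of Myh1 to Myh4 per kb was -2.19 ± 0.22 in hyperplasia (range -2.55 to -1.90) and -1.02 ± 0.64 in invasive carcinoma (range -1.76 to 0.05), with normal tissue between them at -1.71 ± 0.26. The 3 genes lie side by side on GRCm38 in the cluster of skeletal myosins, Myh2 at chr11:67171027-67197517, Myh1 at chr11:67200052-67224575 and Myh4 at chr11:67238029-67260446, all on the plus strand. Of the 50-base words of Myh1, 25.4% also occur in another gene, mostly Myh2, as do 22.9% of those of Myh2 and 18.9% of those of Myh4, so that the authors' counting could have split or dropped some of their reads. The antisense gene Myhas overlaps Myh1, and the strand setting of the counting is not given in the sources used here.

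**Figure D3:**
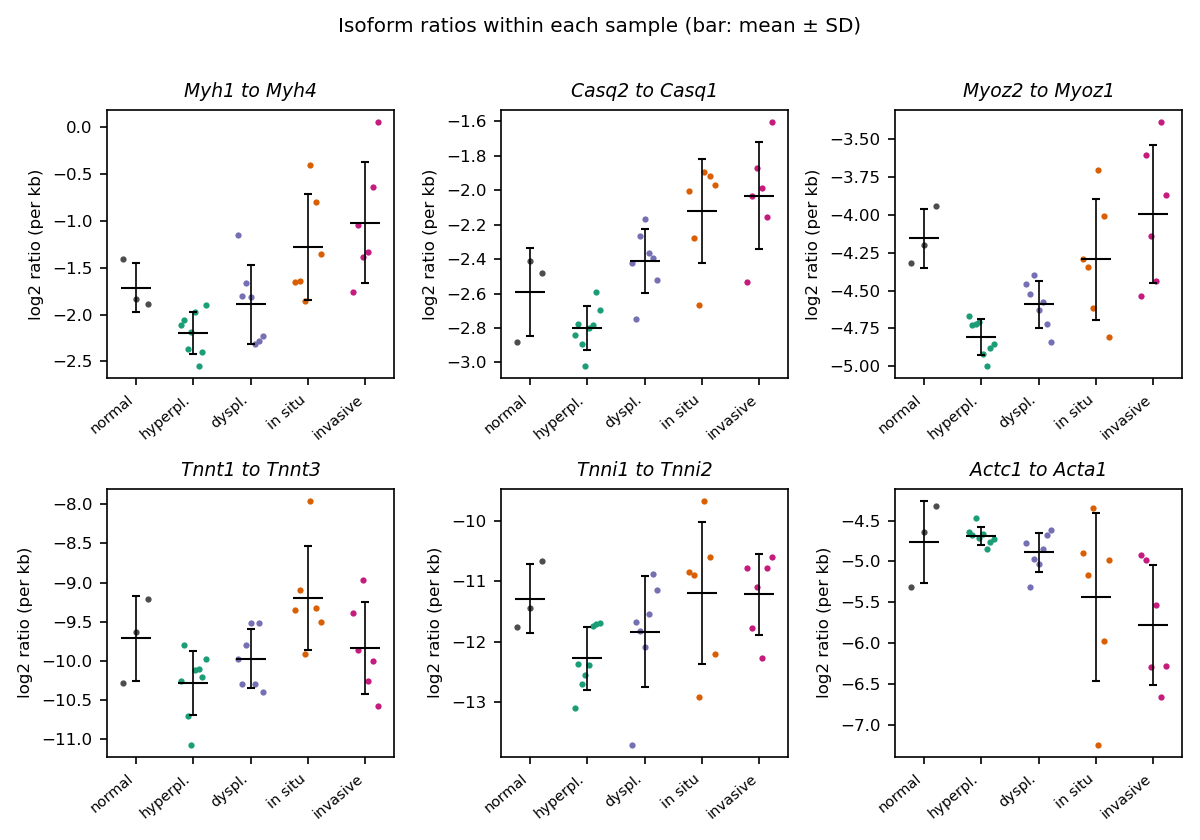
Log2 ratios of 6 isoform pairs per kb of exon in each sample, by stage: Myh1 to Myh4, Casq2 to Casq1, Myoz2 to Myoz1, Tnnt1 to Tnnt3, Tnni1 to Tnni2 and Actc1 to Acta1. Myh1 to Myh4 averages -2.19 in hyperplasia and -1.02 in invasive carcinoma, and Actc1 to Acta1 -4.69 and -5.78.

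Actn3, Pvalb, Mybpc2 and Casq1, all fast-fibre genes, had their highest stage mean in hyperplasia and not in normal tissue, for Casq1 only with D01 included. They were the 4 members lower in dysplasia than in hyperplasia. Actn3, the Z-disc actinin of the fastest fibres, stood at 87.0, 74.2 and 25 CPM in normal tissue. It ran from 71.8 through 150 to 350 CPM in hyperplasia, from 24.0 through 35.2 to 109 in dysplasia, from 43.0 through 90.4 to 155 in carcinoma in situ and from 33.6 through 46.6 to 59.4 in invasive carcinoma. Every hyperplasia was above every invasive carcinoma, and A04 was highest of all. Its log2 fold change was -1.76 ± 0.36 from hyperplasia to dysplasia (adjusted p = 0.00387) and -1.87 ± 0.38 from hyperplasia to invasive carcinoma (adjusted p = 0.000607), and both calls were made whichever sample was left out. The rise in hyperplasia against normal tissue, 1.44 ± 0.49 (adjusted p = 0.0466), was lost without D02 (1.57, adjusted p = 0.128), D03 (1.05, adjusted p = 0.21), A03, A04, A05, A06 or A08.

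Pvalb, the calcium buffer parvalbumin that speeds relaxation of fast fibres, stood at 269, 314 and 167 CPM in normal tissue. It ran from 214 through 368 to 744 CPM in hyperplasia, from 87.9 through 134 to 312 in dysplasia, from 102 through 179 to 349 in carcinoma in situ and from 70.5 through 117 to 149 in invasive carcinoma. All invasive samples were below all normal samples and all hyperplasias. From hyperplasia to dysplasia its log2 fold change was -1.27 ± 0.27 (adjusted p = 0.00555), and to invasive carcinoma -1.77 ± 0.29 (adjusted p = 7.89e-05), the smallest adjusted p among members in that comparison. Both calls were made whichever sample was left out. Against normal tissue Pvalb had 0.68 ± 0.36 in hyperplasia (adjusted p = 0.209) and -1.09 ± 0.35 in invasive carcinoma (adjusted p = 0.0128; without D02 -0.89, adjusted p = 0.0791).

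Mybpc2, the fast myosin-binding protein C, and Casq1, the calcium store calsequestrin of fast fibres, made up the rest of this group. Mybpc2 stood at 217, 174 and 111 CPM in normal tissue, from 121 through 233 to 450 in hyperplasia and from 67.4 through 118 to 241 in dysplasia. From hyperplasia the log2 fold change of Mybpc2 was -1.03 ± 0.27 in dysplasia (adjusted p = 0.0261; without A04 -0.86, adjusted p = 0.066, and lost also without B04, B05, B06 or B07). In invasive carcinoma it was -1.32 ± 0.29 (adjusted p = 0.00108). Casq1 stood at 158, 387 and 308 CPM in normal tissue, from 206 through 316 to 473 in hyperplasia and from 79.8 through 179 to 211 in invasive carcinoma. D01 was thus far below the other normal samples for Casq1, and the higher mean of hyperplasia for Casq1 rested on D01. The log2 fold change of Casq1 from hyperplasia was -0.71 ± 0.20 in dysplasia (adjusted p = 0.0322; without A04 -0.60, adjusted p = 0.0756, and lost also without A01, A02, B03, B04, B05 or B06). In invasive carcinoma it was -0.95 ± 0.21 (adjusted p = 0.00099). Against normal tissue the invasive value was -0.78 ± 0.26 (adjusted p = 0.0152; without D02 -0.49, adjusted p = 0.171, and without D03 -0.71, adjusted p = 0.0523).

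The fast troponins, the calcium pump and the light chains were lower in invasive carcinoma than in normal tissue. Tnnt3, fast troponin T, stood at 4515, 6238 and 5055 CPM in normal tissue and from 1546 through 2823 to 3687 CPM in invasive carcinoma, without overlap, a log2 fold change of -0.90 ± 0.22 (adjusted p = 0.00154). Tnni2 and Tnnc2, the inhibitory and calcium-binding troponins, had -0.86 ± 0.21 (adjusted p = 0.00139) and -0.99 ± 0.21 (adjusted p = 0.000507). Atp2a1, the calcium pump of fast fibres, stood at 9608, 12284 and 10700 CPM in normal tissue and from 2798 through 5994 to 7162 CPM in invasive carcinoma, -0.93 ± 0.22 (adjusted p = 0.00101). Myoz1, a Z-disc protein of fast fibres, had -0.99 ± 0.20 (adjusted p = 0.000336), and Mylk2, the skeletal myosin light chain kinase, -1.01 ± 0.27 (adjusted p = 0.00337; without D01 -0.70, adjusted p = 0.0535). Mylpf and Myl1, the regulatory and essential light chains, were lower by unlike amounts, -0.55 ± 0.21 (adjusted p = 0.0347; without D02 -0.33, adjusted p = 0.276, and lost also without D03, C03 or C12) and -0.95 ± 0.21 (adjusted p = 0.000738).

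Of the 9 slow-fibre isoforms, Myh7, Myl2, Myl3 and Tnnc1 were nearly absent, while Mybpc1, Casq2 and Myoz2 were not. Myh7, the slow myosin heavy chain, had 106 counts over all 30 samples, 42 of them in 1 dysplasia, B01, and no count in 10 samples. Myl2 had 71 counts and Myl3 142, with highest levels of 0.488 and 0.511 CPM. In per-kb terms the fast isoforms made up between 96.7% and 97.2% of the fast, slow and embryonic members in every stage's mean, and the slow ones between 1.93% and 2.23%. Most of that slow share was Mybpc1, slow myosin-binding protein C, which fast fibres are known to express as well. Mybpc1 stood at 1325, 1943 and 1599 CPM in normal tissue and from 491 through 880 to 1236 CPM in invasive carcinoma, a log2 fold change of -0.88 ± 0.22 (adjusted p = 0.00162).

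The slow troponins Tnnt1 and Tnni1 were called lower in hyperplasia and dysplasia and not in carcinoma in situ, and Tnnt1 again in invasive carcinoma. Each of these calls was lost without D02 and likewise without D03. Tnnt1, slow troponin T, stood at 5.04, 10.9 and 11.9 CPM in normal tissue, from 3.29 through 4.51 to 6.72 in hyperplasia and from 3.16 to 5.99 in dysplasia. The carcinomas in situ ran from 5.80 through 6.47 to 13.5 CPM and the invasive carcinomas from 1.42 to 8.22. Its log2 fold change was -1.04 ± 0.32 in hyperplasia (adjusted p = 0.0278; without D02 -0.93, adjusted p = 0.149, and without D03 -0.83, adjusted p = 0.144) and -0.26 ± 0.34 in carcinoma in situ (adjusted p = 0.571). In dysplasia Tnnt1 had -1.09 ± 0.33 (adjusted p = 0.0153; without D02 -0.97, adjusted p = 0.102). In invasive carcinoma it had -0.98 ± 0.34 (adjusted p = 0.019; without D03 -0.76, adjusted p = 0.12). Tnni1, slow troponin I, stood at 1.57, 2.7 and 3.12 CPM in normal tissue and from 0.554 through 0.949 to 1.27 CPM in hyperplasia, below all normal samples. Its change there was -1.42 ± 0.38 (adjusted p = 0.0131; without D02 -1.36, adjusted p = 0.0698, and without D03 -1.22, adjusted p = 0.0805). In dysplasia Tnni1 had -1.28 ± 0.39 (adjusted p = 0.0167; without D03 -1.07, adjusted p = 0.1). In carcinoma in situ Tnni1 ran from 0.612 to 3.65 CPM, with -0.39 ± 0.40 (adjusted p = 0.458). Casq2, the slow and cardiac calsequestrin, passed the test in none of the stage comparisons, with -0.32 ± 0.25 in invasive carcinoma (adjusted p = 0.317), and D01 at 30.1 CPM was again far below D02 and D03 at 102 and 77.4. Myoz2, the slow Z-disc counterpart of Myoz1, stood at 47.3, 60.6 and 52.4 CPM in normal tissue and from 20.2 to 38.2 CPM in hyperplasia, without overlap, -0.97 ± 0.25 (adjusted p = 0.00913; without D02 -0.89, adjusted p = 0.0613).

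Tnnc1, the troponin C of slow fibres and heart, was the only member called higher in carcinoma in situ, with a log2 fold change of 2.15 ± 0.83 against normal tissue (adjusted p = 0.0425) and 2.34 ± 0.60 against dysplasia (adjusted p = 0.0259). It rests on 168 counts over all samples. Normal tissue stood at 0.217, 0.169 and 0.044 CPM, dysplasia from 0.0445 to 0.218 and carcinoma in situ from 0.0417 through 0.539 to 1.58, the last in C07. C07 also held the highest Tnnt1, Tnni1, Myh8 and Myh3. Without C07 the value against dysplasia was 1.84 (adjusted p = 0.117) and against normal tissue 1.65 (adjusted p = 0.118). The first was lost also without B02, B05, C02 or C10, the other also without D01, D02, D03, C01 or C02. By limma-voom neither was called (1.57, adjusted p = 0.0861, against dysplasia and 1.83, adjusted p = 0.104, against normal tissue). DESeq2 gave Tnnc1 no adjusted p against dysplasia and called Tnnt1 there in its place (0.83, adjusted p = 0.0321), and Tnnc1 against normal tissue (2.16, adjusted p = 0.0486). With a replicate block the value against dysplasia was 2.65 (adjusted p = 0.0507), and with only the groups compared Tnnc1 did not pass the expression filter there. The summed CPM of 8 cardiac markers ran from 8.62 to 10.7 in normal tissue, 11.5 to 21.0 in carcinoma in situ and 13.0 to 30.3 in invasive carcinoma, nearly all of it from Tnnt2, Nppb and Myl7. Their defining member Myh6, the cardiac heavy chain, had at most 0.4 CPM in any sample, and Nppa had 1 count in all 30. The part of cardiac-type transcripts in the Tnnc1 values was not tested.

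Of the 2 embryonic and neonatal isoforms tested, the actin was called lower in the carcinomas and the neonatal myosin in no comparison. Actc1, cardiac actin, which developing and regenerating skeletal fibres also use, stood at 213, 466 and 446 CPM in normal tissue. It ran from 179 through 260 to 340 CPM in hyperplasia, from 133 through 161 to 271 in dysplasia, from 30.8 through 145 to 323 in carcinoma in situ and from 34.2 through 88.0 to 201 in invasive carcinoma. Invasive carcinoma lay wholly below normal tissue. In carcinoma in situ its log2 fold change was -1.30 ± 0.48 (adjusted p = 0.0337; without D02 -1.12, adjusted p = 0.133, and lost also without D03, C02, C07 or C10). It was -1.88 ± 0.48 in invasive carcinoma (adjusted p = 0.00246) and -1.32 ± 0.39 in invasive carcinoma against hyperplasia (adjusted p = 0.0104). The log2 ratio of Actc1 to Acta1 per kb was -4.76 ± 0.50 in normal tissue, -4.69 ± 0.11 in hyperplasia and -5.78 ± 0.74 in invasive carcinoma. Myh8, the neonatal heavy chain, stood at 2.66, 3.43 and 2.11 CPM in normal tissue and from 1.41 through 1.69 to 2.81 CPM in invasive carcinoma, -0.57 ± 0.28 (adjusted p = 0.0936). Myh3, the embryonic heavy chain, had 144 counts in all and at most 0.914 CPM, in C07.

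In excitation-contraction coupling, Ryr1, the calcium release channel of the sarcoplasmic reticulum, stood at 1015, 1469 and 1162 CPM in normal tissue and from 405 through 784 to 929 CPM in invasive carcinoma, without overlap, -0.72 ± 0.19 (adjusted p = 0.00299). Cacna1s, the voltage sensor that opens it, had -0.93 ± 0.20 (adjusted p = 0.000439) and was the coupling gene that was lower also against hyperplasia, by a log2 fold change of -0.62 ± 0.16 (adjusted p = 0.00289). Sln (sarcolipin), a small inhibitor of the calcium pump, kept no such order. It stood at 365, 714 and 427 CPM in normal tissue, from 236 through 261 to 343 in hyperplasia and from 172 through 267 to 311 in dysplasia. It then ran from 224 through 336 to 397 in carcinoma in situ and from 183 through 361 to 457 in invasive carcinoma. Hyperplasia and dysplasia lay wholly below normal tissue, and the carcinomas overlapped it. In hyperplasia the log2 fold change of Sln was -0.88 ± 0.20 (adjusted p = 0.00418; without D02 -0.56, adjusted p = 0.12). It was -0.59 ± 0.21 in invasive carcinoma (adjusted p = 0.0258; without D02 -0.24, adjusted p = 0.404, and lost also without C03 or C12). Among lesion samples alone Sln rose by 0.12 per stage (adjusted p = 0.0383), 1 of 2 members that did, the other being Tnni1 with 0.29 (adjusted p = 0.0382).

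The 5 metabolic members were all lower in invasive carcinoma than in normal tissue (22.7% of all genes). Ckm, muscle creatine kinase, which buffers ATP, stood at 5576, 7867 and 5812 CPM in normal tissue, from 3925 through 4833 to 6669 in hyperplasia and from 1594 through 3463 to 4172 in invasive carcinoma, with no invasive sample in the normal range. The log2 fold change of Ckm was -0.98 ± 0.22 (adjusted p = 0.000748), and -0.63 ± 0.18 against hyperplasia (adjusted p = 0.00663). Pgam2, a muscle enzyme of glycolysis, had -1.06 ± 0.22 (adjusted p = 0.000388) and -0.76 ± 0.18 (adjusted p = 0.00165) in the same comparisons, and Eno3 (muscle enolase) and Pygm (muscle glycogen phosphorylase) followed it. Mb, the oxygen store myoglobin, stood at 4385, 6685 and 5485 CPM in normal tissue and from 2616 through 3221 to 4037 CPM in hyperplasia, already without overlap. Mb had -0.75 ± 0.19 in hyperplasia (adjusted p = 0.0104; without D02 -0.61, adjusted p = 0.1), -1.05 ± 0.20 in invasive carcinoma (adjusted p = 0.000203) and -0.30 ± 0.16 in invasive carcinoma against hyperplasia (adjusted p = 0.14).

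The ubiquitin ligases that mark sarcomere proteins for degradation in wasting muscle had the smallest adjusted p of all members against normal tissue, and their normal samples disagreed. Trim63 (MuRF1) stood at 410 CPM in D01 but 129 and 111 in D02 and D03. It ran from 69.8 through 80.8 to 115 CPM in hyperplasia and from 52 through 79.8 to 95.5 in dysplasia. The carcinomas in situ ran from 49.5 through 66.2 to 86.8 and the invasive carcinomas from 41.2 through 57.5 to 76.9, so that only the hyperplasia A08 reached into the normal range. The log2 fold changes were -1.36, -1.50, -1.69 and -1.87 in stage order (adjusted p = 0.000878, 0.000431, 8.48e-05 and 1.61e-05). Without D01 they were -0.51 (adjusted p = 0.0947), -0.64 (adjusted p = 0.0258), -0.82 (adjusted p = 0.00457) and -1.003 (adjusted p = 0.000564), so that the hyperplasia call rested on D01.

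Fbxo32 (atrogin-1), the other ligase, stood at 646 CPM in D01 and 351 and 280 in D02 and D03. It ran from 171 through 212 to 248 CPM in hyperplasia, from 116 through 176 to 219 in dysplasia, from 120 through 174 to 191 in carcinoma in situ and from 113 through 144 to 208 in invasive carcinoma, all below all normal samples. The log2 fold changes were -1.03, -1.30, -1.40 and -1.44 (adjusted p = 0.00123, 0.000196, 4.51e-05 and 1.73e-05), and -0.60, -0.86, -0.95 and -0.996 without D01 (adjusted p = 0.0411, 0.0033, 0.00132 and 0.000457). Some genes that are not members were also highest in D01. The metabolic gene Pdk4, which diverts muscle from glucose use, stood at 3466 CPM there and 711 and 610 in D02 and D03. Of the atrophy programme, Fbxo31 stood at 295 against 145 and 109, and the glucocorticoid-induced factor Klf15 at 60.6 against 30.5 and 28.8. Mt2 of the same programme was not higher in D01, at 250 against 254 and 248. D01 also differed from the other normal samples in salivary gland RNA. The mean log2 CPM of the salivary markers was 6.92 in D01, against -2.21 in D02 and -0.94 in D03. The cause of the high values in D01 was not tested.

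Myod1 and Myog, the factors that drive myogenic differentiation, were low throughout. Myod1 stood at 2.76, 3.72 and 6.42 CPM in normal tissue, from 4.21 through 5.20 to 7.64 in hyperplasia and from 1.08 through 2.54 to 6.00 in invasive carcinoma. Its change was -0.79 ± 0.26 against hyperplasia (adjusted p = 0.0161) and -0.47 ± 0.33 against normal tissue (adjusted p = 0.243). Myog stood at 7.37, 9.18 and 12 CPM in normal tissue and from 2.93 through 5.98 to 9.49 CPM in invasive carcinoma. Its change was -0.61 ± 0.23 (adjusted p = 0.0312; without D03 -0.40, adjusted p = 0.225, and lost also without D02, C06, C09 or C12). Chrna1, the acetylcholine receptor subunit of the endplate, stood at 12.1, 24.6 and 20.5 CPM in normal tissue and from 7.66 through 11.1 to 14.8 CPM in invasive carcinoma. Its change was -0.73 ± 0.19 (adjusted p = 0.00289; without D02 -0.50, adjusted p = 0.0588). Its hyperplasias, from 12.2 to 19.5 CPM, overlapped normal tissue, where D01 was lowest.

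To see which members departed from the rest of muscle, stage means were fitted again with the reference score of 20 non-member muscle genes as a covariate. The score itself was lower at later stages, so these values describe departures and not levels. At equal score, 10 members were lower and 3 higher in hyperplasia than in normal tissue (3.52% and 6.21% of all genes). Dysplasia had 3 lower and 0 higher (0.901% and 3.19%), carcinoma in situ 2 and 2 (2.19% and 3.97%) and invasive carcinoma 2 and 0 (1.28% and 3.03%). The median of the 48 members was 0.033 in invasive carcinoma, against -0.91 without the score, and Acta1 had -0.05 ± 0.11 and Myh4 -0.12 ± 0.17. The 2 members lower at each of the carcinoma stages were Trim63 and Fbxo32, at -1.57 ± 0.36 (adjusted p = 0.0132) and -0.90 ± 0.24 (adjusted p = 0.032) in invasive carcinoma. Without D01 these were -0.27 (adjusted p = 0.722) and -0.10 (adjusted p = 0.888), and none of the ligase calls at equal score was made without D01.

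In hyperplasia at equal score, Casq1 was higher by 0.68 ± 0.11 (adjusted p = 0.000134). Myom2, Mb and Tnni1 had -0.51 ± 0.09 (adjusted p = 0.000613), -0.37 ± 0.08 (adjusted p = 0.00315) and -1.69 ± 0.41 (adjusted p = 0.00746). These 4 calls were made whichever sample was left out. Actn3 and Pvalb were higher, by 1.75 ± 0.46 (adjusted p = 0.0148) and 1.06 ± 0.29 (adjusted p = 0.02). They lost the call without D02 (1.69, adjusted p = 0.0649; 1.05, adjusted p = 0.0711) or D03, Pvalb also without A04. Xirp1, Des, Trim63 and Fbxo32 lost theirs without D01, Sln without D02, and Myot and Myoz2 without any of 6 samples each, D01 and D02 among them. In carcinoma in situ Casq1 and Casq2 were higher, by 0.61 ± 0.13 (adjusted p = 0.00536) and 0.79 ± 0.22 (adjusted p = 0.03). Both calls were lost without D01 (0.38, adjusted p = 0.106; 0.37, adjusted p = 0.328), that of Casq2 also without C10 or C11. In dysplasia Tnni1 had -1.76 ± 0.48 (adjusted p = 0.0344), lost without D02 (-1.68, adjusted p = 0.0892), D03, B01, B03 or B04.

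Between hyperplasia and invasive carcinoma, where D01 to D03 are on neither side, 1 member was lower and 8 higher in invasive carcinoma at equal score (2.92% and 3.99% of all genes). Sln was higher by 0.81 ± 0.12 (adjusted p = 0.000183) and Myom2 by 0.49 ± 0.09 (adjusted p = 0.00144), and these calls were made whichever sample was left out. Pvalb was lower, with -1.04 ± 0.28 (adjusted p = 0.0257; without C05 -0.83, adjusted p = 0.0738, and lost also without C06 or C08). Myoz2 was higher by 0.72 ± 0.20 (adjusted p = 0.0277; without C05 0.59, adjusted p = 0.0958, and lost also without A06, A07 or C09). Actn2, Myot, Des, Ryr1 and Mb were higher by 0.18 to 0.30 and lost the call without any of 4 to 13 samples. Myh1 had 0.63 ± 0.21 (adjusted p = 0.0633) and Myh4 -0.24 ± 0.12 (adjusted p = 0.217), so that neither heavy chain was called at equal score.

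**Figure D4:**
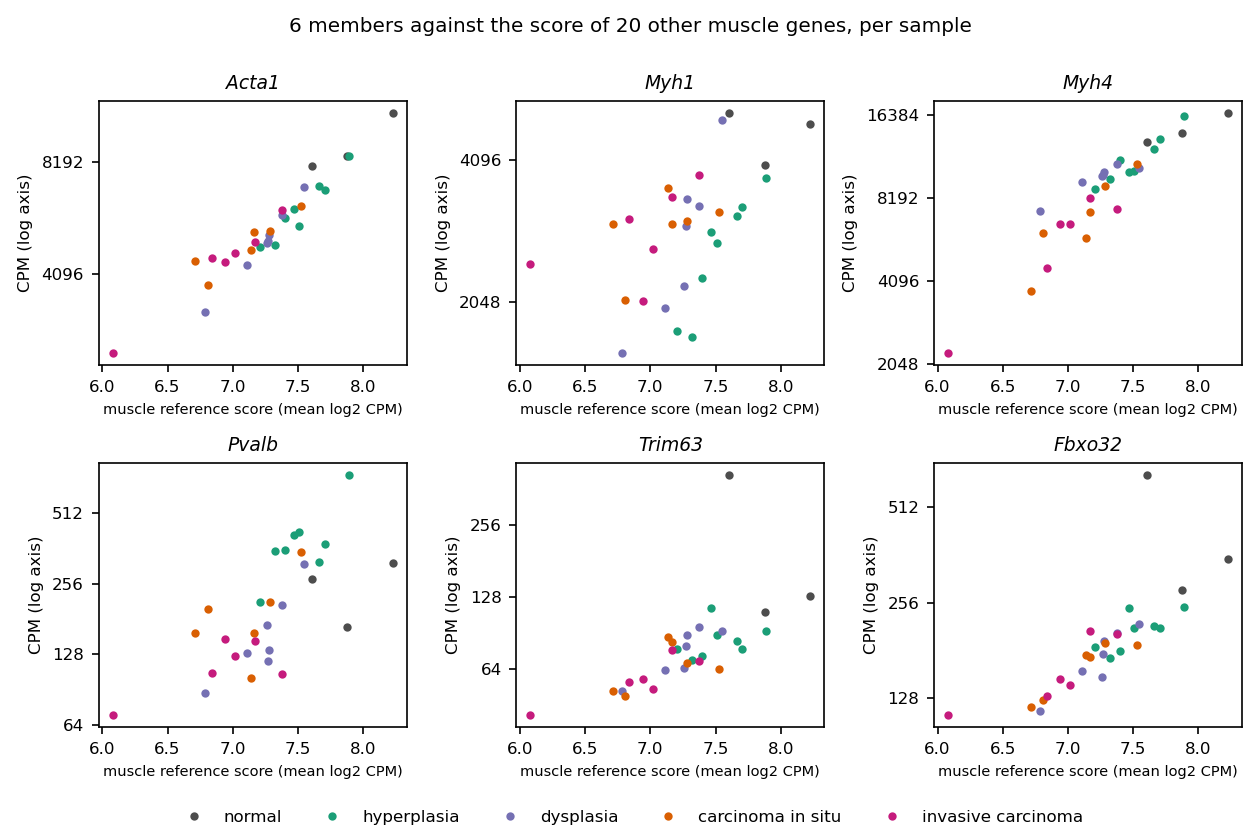
CPM of Acta1, Myh1, Myh4, Pvalb, Trim63 and Fbxo32 (log axis) against the muscle reference score (mean log2 CPM of 20 non-member muscle genes) in the 30 samples, coloured by stage. Acta1 follows the score across stages. Myh4 falls with the score as well, but samples of like score can differ, as the dysplasia B06 (score 6.79, 7323 CPM) and the invasive C09 (score 6.84, 4552 CPM). The normal sample D01 lies above the other samples of its score for Trim63 (410 CPM) and Fbxo32 (646 CPM).

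Other muscle genes, listed by pathway and not members, were mostly lower too in invasive carcinoma against normal tissue. Of all genes tested 22.7% were lower and 23.4% higher there. Of 24 other sarcomere genes 22 were lower and 1 higher. Lmod2, a leiomodin that elongates thin filaments, had -1.91 ± 0.22 (adjusted p = 1.49e-06) and Nrap, a scaffold of myofibril assembly, -1.10 ± 0.20 (adjusted p = 9.92e-05). Tpm3, a tropomyosin also made outside muscle, had 0.69 ± 0.11 (adjusted p = 3.72e-05). Of 16 genes of the triad and its channels 15 were lower and 1, the pump Atp2a2, higher. Jph1, which joins the membranes of the triad, had -1.02 ± 0.19 (adjusted p = 0.000113). Jsrp1 had -1.05 ± 0.20 (adjusted p = 0.000152) and the channel subunit Cacng1 -0.96 ± 0.19 (adjusted p = 0.000255). Of 18 metabolic genes 17 were lower, with the fatty acid carrier Fabp3 at -1.52 ± 0.26 (adjusted p = 5.88e-05), the glucose transporter Slc2a4 at -1.18 ± 0.22 (adjusted p = 0.000127) and Pdk4 at -2.76 ± 0.53 (adjusted p = 0.000206). Pdk4 had -1.47 without D01 (adjusted p = 0.0224). Of 7 other myosins and kinases 3 were lower, among them Mylk4 at -2.38 ± 0.33 (adjusted p = 1.05e-05) and Mylk3 at -0.88 ± 0.23 (adjusted p = 0.00254), and 2 higher, the atrial light chain Myl7 and Myh7b. Myh7b had 2.44 ± 0.64 (adjusted p = 0.0028), with 0.044 to 0.169 CPM in normal tissue and 0.357 to 0.993 CPM in invasive carcinoma.

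Of 18 tested myogenic regulators 16 were lower and none higher, against the same 22.7% and 23.4% of all genes. Rbm24, a splicing factor of muscle genes, had -1.18 ± 0.22 (adjusted p = 0.000124) and Mef2a -0.52 ± 0.10 (adjusted p = 0.000112). Of 14 endplate genes 11 were lower, with Dok7 at -1.37 ± 0.18 (adjusted p = 3.32e-06), Rapsn at -0.95 ± 0.23 (adjusted p = 0.00128) and Musk at -0.83 ± 0.21 (adjusted p = 0.00183), proteins that cluster the receptors of Chrna1. All 9 genes of the dystrophin complex were lower, with Sgcb at -0.74 ± 0.14 (adjusted p = 0.00013) and Dmd itself at -0.86 ± 0.18 (adjusted p = 0.000375). Of 14 genes of the atrophy programme 7 were lower and 1 higher. Fbxo31 had -1.23 ± 0.20 (adjusted p = 5.01e-05; -0.69 without D01, adjusted p = 0.00213). Klf15 had -1.19 ± 0.25 (adjusted p = 0.000449; -0.74 without D01, adjusted p = 0.0204). The metallothionein Mt2 was the higher gene, with 0.97 ± 0.17 (adjusted p = 9.84e-05).

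Markers of some other cell types also differed between the same stages, where 22.7% of all genes were lower and 23.4% higher. The summed CPM of 6 leukocyte markers ran from 109 to 164 in normal tissue and from 978 to 4535 in invasive carcinoma, with 4 of 5 tested markers higher and none at 0. That of 8 squamous markers ran from 40728 to 60402 and from 51352 to 69591, with 6 higher and 1 lower. Lower values were found for 6 Schwann cell markers, 368 to 589 against 156 to 296 CPM with 5 lower, and for 5 endothelial markers, 285 to 345 against 133 to 226 CPM with all 5 lower. Fibroblast markers ran from 1216 to 1470 and from 651 to 1132 CPM with 2 of 6 lower. Adipocyte markers ran from 134 to 209 and from 73.7 to 102 with 1 of 5 tested lower, and smooth muscle markers from 410 to 556 and from 347 to 479 with 1 of 8 lower. The numbers of fibroblast, adipocyte and smooth muscle markers called are near the share of all genes. Salivary gland markers ran from 1.35 to 32173 CPM over the 30 samples, and mitochondrial transcripts averaged 11.6% of counts in normal tissue and 6.59% in invasive carcinoma. With a score of the salivary markers as a covariate, 38 members were lower and 0 higher in invasive carcinoma against normal tissue. Their median log2 fold change was -0.87, and 4099 of all genes were lower and 4158 higher. The part of the other tissues in the members' values was not tested.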

How the data were processed

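Polyadenylated RNA of 30 samples was sequenced with a stranded TruSeq mRNA kit after AllPrep extraction, per the labels' protocols. The authors deposited a table of raw counts per Ensembl gene. The submitters' processing notes name cutadapt 2.4, STAR 2.7.2a and the build GRCm38. Which program made the counts, with which strand setting and annotation release, is not given in the sources used here. Gene names and exon lengths were taken from GENCODE M21, which matched 55141 of 55487 rows.

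Groups were taken from the labels. Genes were tested with edgeR 4.0.16 in R 4.3.3 (filterByExpr, TMM factors, robust quasi-likelihood fit, 1 mean per stage over all 30 samples), with Benjamini-Hochberg adjustment over 17638 genes. Standard errors are the log2 fold change divided by the square root of the F statistic and are approximate. The biological coefficient of variation was 24.0%. A further fit added the muscle reference score (prior count 2). Levels between genes and isoform ratios were computed per kb of exon. The members, their roles and all lists were chosen with earlier results of these data known.

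All 52 members are accounted for by role and count. Values are given for a fixed list of members, for any member called higher, for the 8 smallest adjusted p in invasive carcinoma against normal tissue and the 3 smallest in each other comparison, and for up to 3 called genes of each pathway list, some of which are not reported here. On simulated counts with 67 genes changed 2-fold among 17638, the fits without the score recovered between 62.7% and 79.1% of them, depending on the comparison, and the fit with the score between 49.3% (invasive carcinoma against normal tissue) and 79.1%. The simulated counts had no stage difference in the score, whereas the measured score was lower at later stages. The recovery of the real fit with the score is therefore not known from them. Alternatives were DESeq2 1.42.0, limma-voom (limma 3.58.1, samples weighted), RLE or upper-quartile factors, keeping all genes, a threshold of 0.01, fits on only the groups compared, a replicate block, a salivary gland score, another muscle reference list and leaving out each sample. No 2 samples of a group agreed within sampling noise.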

Additional observations from a re-analysis of the deposited data

Results flagged for a closer look

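Of 132 sets of 1 member in 1 lesion stage that were tested for a sample far from the others, 8 held one, where chance alone gives about 6.6. In hyperplasia, A04 stood apart with the highest Pvalb, 744 CPM against 426 in the next sample, and the highest Mylk2, 178 against 120 CPM. In dysplasia, B06 had the lowest Myh4, 7323 CPM with the next at 9369. In carcinoma in situ, C07 had the highest Tnnt1, 13.5 against 8.04 CPM, and the highest Myh8, 4.19 against 2.52 CPM, and C04 the highest Mybpc2, 274 against 156 CPM. In invasive carcinoma, C05 had the highest Xirp1, 121 against 74.3 CPM, and C12 the lowest Myoz1, 138 CPM with the next at 259.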

How the results depend on the processing

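Counts of members called are given as lower or higher. RLE factors, upper-quartile factors and DESeq2 moved none of these counts by more than 1.5 times. In carcinoma in situ against dysplasia, however, the member called higher by DESeq2 was Tnnt1 and not Tnnc1. With limma-voom, hyperplasia against normal tissue had 21 lower and 2 higher, dysplasia against hyperplasia 12 lower, carcinoma in situ against dysplasia 1 lower and 3 higher, and invasive carcinoma against hyperplasia 1 higher. It also called more of all genes. In hyperplasia against normal tissue 2336 were lower and 2309 higher, where edgeR called 1070 and 1449. In dysplasia against hyperplasia 1792 were lower, where edgeR called 387. In carcinoma in situ against dysplasia 1059 were lower and 1211 higher, where edgeR called 436 and 528. At a threshold of 0.01, 5 were lower and 0 higher in hyperplasia, 14 lower in dysplasia and 0 higher in carcinoma in situ against normal tissue, 2 lower in dysplasia and 16 lower in invasive carcinoma against hyperplasia, and 0 higher in carcinoma in situ against dysplasia and for the slope. The shares of all genes at 0.01 are not given here. Without the expression filter, 0 were higher in hyperplasia and in carcinoma in situ against normal tissue, and 2 were lower in dysplasia against hyperplasia (241 of all genes). With only the groups compared, the same higher counts were 0 and 0, 9 were lower in dysplasia against hyperplasia (956 of all genes) and 0 higher in carcinoma in situ against dysplasia (111 of all genes). With the salivary score, 0 were higher in carcinoma in situ against normal tissue (3479 of all genes) and 2 against dysplasia (684 of all genes). On lesion samples alone the slope was higher for 2 members. With the other muscle reference list, 1 was higher in invasive carcinoma against normal tissue (798 of all genes), and 2 were lower and 3 higher against hyperplasia (759 and 1035 of all genes).

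Without D01 and C12, chosen after seeing the data, 0 members were higher in carcinoma in situ against normal tissue (2966 of all genes), 2 against dysplasia (647), and 1 was higher in invasive carcinoma against hyperplasia (2930). At equal muscle score that setting gave 5 lower and 5 higher in hyperplasia, 1 and 1 in dysplasia, 0 and 1 in carcinoma in situ and 0 lower in invasive carcinoma, where Fbxo32 reversed to 0.029 (adjusted p = 0.968). Over all genes it gave 464 lower and 616 higher in hyperplasia and 121 and 153 in dysplasia. In carcinoma in situ it gave 52 and 95, and in invasive carcinoma 35 lower.

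Leaving out 1 sample at a time gave 2 to 16 lower and 0 to 1 higher in hyperplasia, 4 to 36 lower in dysplasia and 17 to 36 lower and 0 to 1 higher in carcinoma in situ against normal tissue. It gave 2 to 4 lower in dysplasia against hyperplasia, 0 to 3 higher in carcinoma in situ against dysplasia and 0 to 1 higher in invasive carcinoma against hyperplasia. Shares of all genes for fits with 1 sample left out are not given here. At equal muscle score the ranges were 4 to 10 lower and 1 to 5 higher in hyperplasia, 1 to 3 and 0 to 1 in dysplasia, 0 to 2 and 0 to 2 in carcinoma in situ, 0 to 2 and 0 to 2 in invasive carcinoma, and 0 to 1 and 2 to 11 in invasive carcinoma against hyperplasia.

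No pairing by replicate number was seen: the deviations of same-numbered samples had a median correlation of 0.049 over 31 pairs (range -0.56 to 0.51). Samples of other numbers had -0.004 over 322 pairs (range -0.50 to 0.71). Such medians do not settle whether single samples share an animal or a batch. A block by number gives C09, C10, C11 and C12 no weight in the stage contrasts, since no other sample has their numbers. With the number as a replicate block, 19 members were lower in invasive carcinoma against normal tissue, 4 against hyperplasia, 8 in dysplasia against hyperplasia, and 0 higher in carcinoma in situ against dysplasia. Over all genes the block gave 1713, 691 and 540 lower in the first 3 of these, where the main fit gave 4007, 3392 and 387. In carcinoma in situ against dysplasia it gave 148 higher, where the main fit gave 528. At equal muscle score the replicate block gave 5 lower and 1 higher in hyperplasia, 0 lower in dysplasia, 0 and 0 in carcinoma in situ, 1 lower in invasive carcinoma, and 0 lower and 2 higher in invasive carcinoma against hyperplasia. Over all genes that fit gave 419 lower and 672 higher in hyperplasia, 10 lower in dysplasia and 17 and 8 in carcinoma in situ. It gave 89 lower in invasive carcinoma, and 245 lower and 345 higher in invasive carcinoma against hyperplasia. Where these counts moved, the cause was not tested. The 3 normal samples limit every comparison with normal tissue, and depth limits Myh7, Myl2, Myl3, Myh3 and Tnnc1, which had 168 counts or fewer in all samples together. Depth limits Tnni1 as well, to a lesser degree, with 935 counts.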
